A study of Homo sapiens with 18 samples.

Results

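The metallothionein genes MT1E, MT1F, MT1G, MT1H, MT1M, MT1X and MT2A were examined in HEK293, a human embryonic kidney cell line, after transfection with a homeobox gene. The members were the rows of the deposited expression table whose gene symbols were all among these 7 genes. They came to 9 transcript clusters, the array's unit of 1 value per transcript locus, of 21214 clusters with a gene symbol. MT2A was read by 3 clusters and each of the other 6 genes by 1. The 6 groups were cells transfected with a RHOXF1 expression vector, a RHOXF2 expression vector or an empty control vector, harvested 48 h after transfection, and the same transfections harvested at 24 h. Each group had 3 arrays, which the series text calls biological triplicates, so 18 arrays were read. All groups received a plasmid with Lipofectamine 2000, and no group was left untransfected. The labels also list a GFP plasmid, pCMV6-AC-GFP, and do not say which of the plasmids encode GFP. RHOXF1 and RHOXF2 are X-linked homeodomain proteins of the reproductive homeobox family, and the arrays were made to find transcripts that differ when either is introduced.

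Metallothioneins are small, cysteine-rich proteins that bind zinc, copper and cadmium through clusters of thiolates. Their transcription is switched on chiefly by the zinc-sensing factor MTF1, which binds metal response elements in their promoters, and glucocorticoids, oxidants and cadmium also induce several of them. MT2A and the MT1 genes are the broadly expressed forms and buffer zinc in most cell types, including kidney cells. In the RefSeq gene order of chromosome 16 the members lie in a single run with MT1 pseudogenes and other MT1 genes among them. From MT2A it reads MT2A, MT1L, MT1E, MT1M, MT1JP, MT1A, MT1DP, MT1CP, MT1B, MT1F, an uncharacterised lncRNA, MT1G, MT1H, MT1IP and MT1X. The coding sequences of these genes are very similar, so a cluster named for one of them may also have read RNA of another, and how far it did was not tested.

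Promoters are shown as a description. Whether their motifs have a part in the members' movement from array to array was not tested. The RefSeq promoter table (GRCh38.p14) held 3 of the 7 members, MT2A, MT1X and MT1H. The 250 bases before each transcription start are printed, all from the plus strand, 5′ to 3′. They span chr16:56608334-56608583 for MT2A, chr16:56682220-56682469 for MT1X and chr16:56669564-56669813 for MT1H. Capitals mark each match to the metal response element core, TGCGCNC or TGCACNC, on either strand.
MT2A: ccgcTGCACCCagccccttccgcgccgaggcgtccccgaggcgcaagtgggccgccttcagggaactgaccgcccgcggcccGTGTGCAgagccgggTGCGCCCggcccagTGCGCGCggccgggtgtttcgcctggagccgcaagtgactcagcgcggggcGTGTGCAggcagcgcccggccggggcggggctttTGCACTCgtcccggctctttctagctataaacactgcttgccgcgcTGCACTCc
MT1X: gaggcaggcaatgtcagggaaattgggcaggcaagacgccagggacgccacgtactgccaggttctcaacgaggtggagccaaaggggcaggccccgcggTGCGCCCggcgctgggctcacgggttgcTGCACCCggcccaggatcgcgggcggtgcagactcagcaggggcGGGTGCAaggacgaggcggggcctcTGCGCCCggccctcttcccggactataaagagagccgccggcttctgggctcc
MT1H: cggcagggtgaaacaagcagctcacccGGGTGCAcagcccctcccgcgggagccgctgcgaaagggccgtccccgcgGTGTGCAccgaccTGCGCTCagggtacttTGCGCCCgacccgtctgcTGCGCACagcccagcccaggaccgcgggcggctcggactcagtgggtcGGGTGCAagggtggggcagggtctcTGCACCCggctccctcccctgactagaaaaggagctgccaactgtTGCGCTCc
The core was found 7 times before MT2A, 4 times before MT1X and 8 times before MT1H. Among the 35116 promoters of the table, 24.829% held at least 1 core, 1.58% held 3 or more and 0.37% held 4 or more. The cut of 4 equals the lowest count of these 3 members. MT1B and MT4, metallothioneins outside the members, held 3 cores each. With TGCGCNC alone the counts before MT2A, MT1X and MT1H were 2, 2 and 4, and 16.79% of all promoters held a match. With TGCACNC alone they were 5, 2 and 4, and 9.867% of all promoters held a match. The AP-1 letters TGACTCA, searched on both strands like the rest, were found 1 time before MT2A, at 104 to 98 bases before the start, and in 4.203% of all promoters. They were not in the windows of MT1X and MT1H. The TATA letters TATAAA began 29 bases before the start of MT2A and 30 bases before that of MT1X. They were not in the window of MT1H, and 10.716% of all promoters held them. The GC box letters GGGCGG were found 2 times before MT2A, 2 times before MT1X and 1 time before MT1H, and in 42.639% of all promoters. Such matches describe the letters only, and these arrays hold no measurement of binding.

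**Figure D1:**
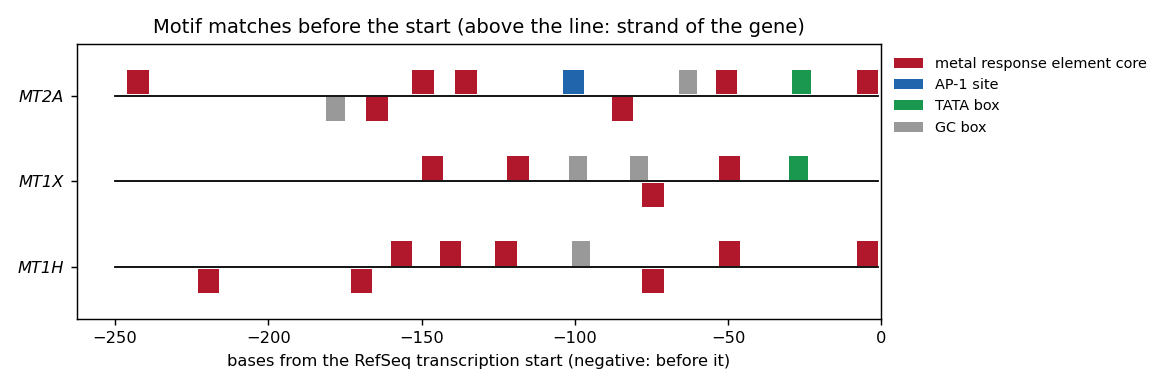
Motif matches in the 250 bases before the start of MT2A, MT1X and MT1H. The horizontal axis is the distance in bases from the RefSeq transcription start, boxes above the line are on the strand of the gene, and boxes below it on the other strand. MT2A holds 7 metal response element cores, MT1X 4 and MT1H 8, while the AP-1 letters are before MT2A alone of the 3.

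The deposited values are log2 expression levels from RMA, a method that corrects background, quantile-normalizes the arrays and summarises the probes of a cluster. A difference of 1 on this scale is a doubling of array signal. Array medians ran from 6.68 to 6.82. The transfected genes were high in their own arrays: RHOXF1 lay 6.14 above control at 48 h and 5.91 above it at 24 h on the log2 scale, and the cluster shared by RHOXF2 and RHOXF2B lay 6.30 and 6.01 above control (limma adjusted p at most 1.78e-08). The RHOXF1 cluster also lay above control in RHOXF2 cells, by 1.84 at 48 h (limma adjusted p = 0.0462) and by 1.14 at 24 h (0.449), and the RHOXF2 cluster lay 0.18 and 0.28 lower than control in RHOXF1 cells (0.905 and 0.961). HEK293's neurofilament, vimentin and keratin markers averaged between 9.28 (KRT8) and 12.82 (NEFM). Of the 9 markers of blood, liver, endothelial and fibroblast cells, 7 averaged between 3.54 (DCN) and 5.72 (CD14), and the collagen genes COL3A1 and COL1A1 averaged 7.04 and 7.89. The sample descriptions carry a running number besides the replicate number, and all 24 h arrays come before all 48 h arrays in it. The labels name no batch, and a difference between the times and one along that run cannot be told apart. In bulk RNA, a change in the share of transfected cells and a change in RNA per cell cannot be told apart either.

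MT2A, the main metallothionein of many human cells, is given by the brightest of its 3 clusters. At 48 h its log2 level was 10.70, 11.15 and 10.76 in RHOXF1 cells, 10.54, 11.23 and 11.37 in RHOXF2 cells, and 11.43, 11.06 and 10.22 in control cells. At 24 h the values were 11.57, 10.99 and 11.32 in RHOXF1 cells, 11.81, 11.29 and 10.72 in RHOXF2 cells, and 11.50, 10.45 and 11.07 in control cells. The groups overlapped at both times, and the lowest and the highest array of all 18 differed 3.02-fold. The other MT2A clusters gave the same picture, with correlations of 0.975 to 0.999 among the 3 over the 18 arrays.

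MT1X, the gene at the far end of the run and like MT2A a zinc buffer of most tissues, spread the most. Its log2 level at 48 h was 9.28, 9.79 and 9.19 in RHOXF1 cells, 9.07, 10.15 and 10.00 in RHOXF2 cells, and 9.80, 10.07 and 8.32 in control cells. At 24 h it was 10.09, 9.27 and 9.87 in RHOXF1 cells, 10.30, 9.43 and 9.21 in RHOXF2 cells, and 10.19, 8.80 and 9.65 in control cells. The lowest array, control number 3 at 48 h, lay 3.97-fold below the highest, RHOXF2 number 1 at 24 h. No groups of the same time, and no groups of the same vector, were separated.

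MT1G, an MT1 gene known for its induction by zinc, gave log2 levels of 7.54, 7.86 and 7.63 in RHOXF1 cells at 48 h, 7.50, 7.88 and 8.24 in RHOXF2 cells and 8.25, 7.85 and 7.16 in control cells. At 24 h it gave 8.52, 7.90 and 8.23 in RHOXF1 cells, 8.85, 8.29 and 7.85 in RHOXF2 cells and 8.43, 7.39 and 8.005 in control cells. The RHOXF1 arrays at 48 h all lay below the RHOXF1 arrays at 24 h, as they did for MT1E, MT1F, MT1H and MT1M. This held for 14.7% of all clusters, while 15.1% had every 48 h array above. For MT1G the other pairs of groups with the same vector overlapped.

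MT1F had log2 levels of 7.56, 7.96 and 7.69 in RHOXF1 cells at 48 h, 7.62, 7.64 and 8.13 in RHOXF2 cells and 7.83, 7.48 and 7.27 in control cells. At 24 h its levels were 8.62, 8.04 and 8.41 in RHOXF1 cells, 8.60, 8.27 and 7.82 in RHOXF2 cells and 8.17, 7.80 and 7.95 in control cells. It was the member with the widest span of group means, 0.83, the highest in RHOXF1 cells at 24 h and the lowest in control cells at 48 h.

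MT1E, for which a smaller spread was seen, had log2 levels of 6.63, 6.59 and 6.63 in RHOXF1 cells at 48 h, 6.63, 6.63 and 6.88 in RHOXF2 cells and 6.697, 6.61 and 6.34 in control cells. At 24 h it had 6.77, 6.76 and 6.88 in RHOXF1 cells, 6.92, 6.82 and 6.51 in RHOXF2 cells and 7.09, 6.72 and 6.88 in control cells. All 3 control arrays at 48 h lay below all 3 control arrays at 24 h, which held for 15.7% of all clusters, and 14.7% had them all above. MT1H ranged from 5.94 to 7.37 and MT1M from 4.39 to 5.04 over the 18 arrays. The lower quartile of all clusters lay between 4.86 and 5.02 on the 18 arrays, so MT1M read in the dim part of the array, and the table gives no detection call.

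**Figure D2:**
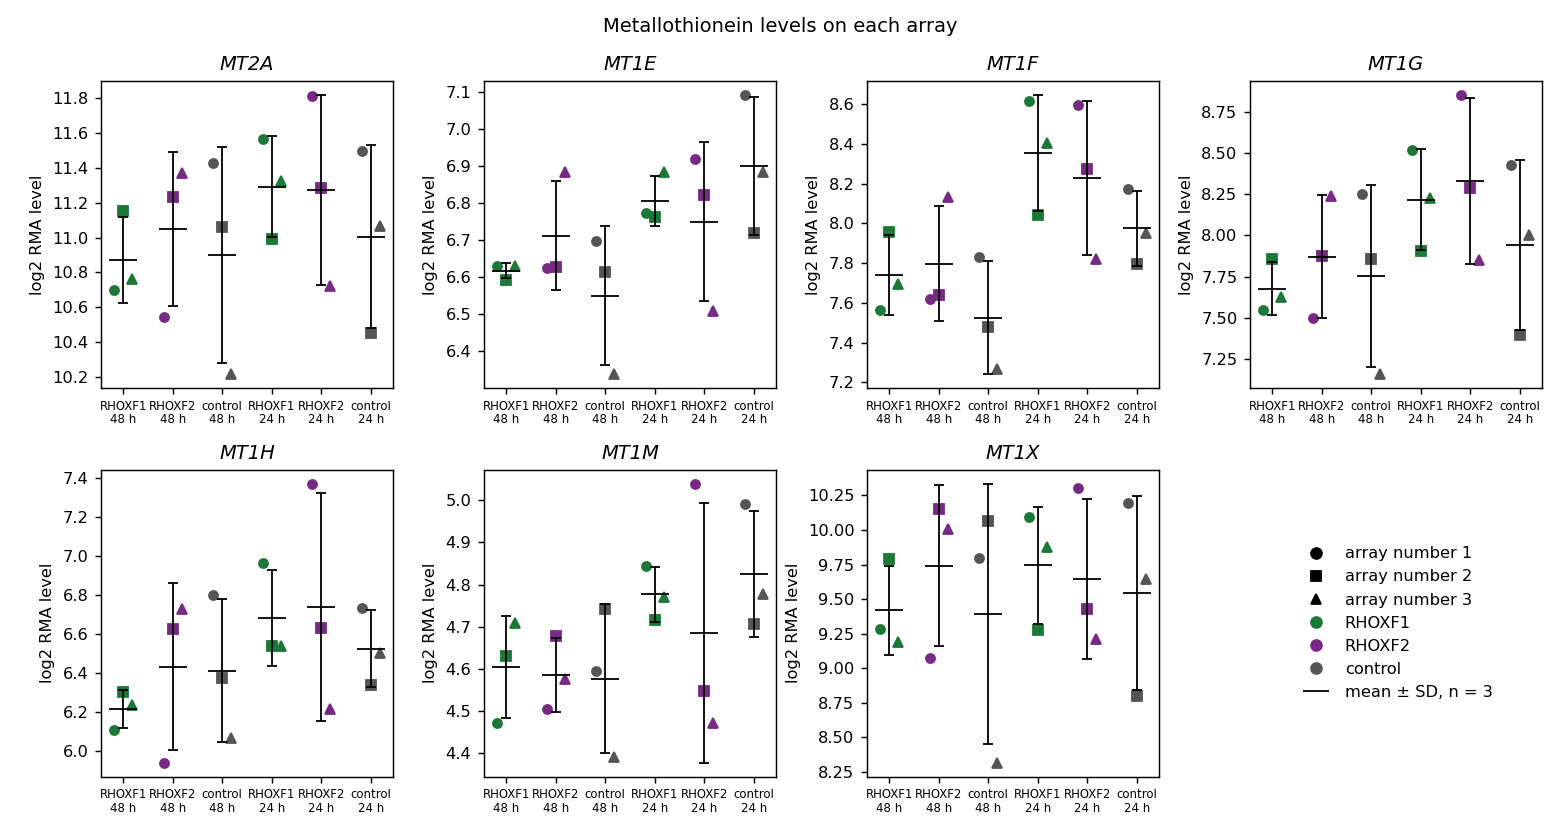
Log2 RMA level (vertical axes) of each of the 7 genes on each of the 18 arrays, by group (horizontal axes), with MT2A shown by its brightest cluster. Points are arrays, the marker shape gives the array's number within its group, and bars show the mean ± SD of 3 arrays. RHOXF1, RHOXF2 and control points overlap at each time for every gene, and MT1X runs from 8.32 to 10.30.

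In order of group means, no member cluster had neighbouring groups whose means differed by more than its own within-group SD. For MT2A and MT1X even the whole span of the 6 group means, 0.42 and 0.35, was smaller than the within-group SD, 0.47 and 0.62. The means differed by more than that SD from end to end for the other 5 genes. Over all tested clusters the median span of group means was 0.25 and the median within-group SD 0.13. How many of all clusters had either trait was not counted. Differences between groups made up 7.2% of the sum of squares of MT1X, 15.9% of that of MT2A and 60.6% of that of MT1F, and the median over all tested clusters was 41.7%.

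Neither vector moved a metallothionein past the test against control at 48 h. RHOXF1 cells had 0 of 9 member clusters called by limma at an adjusted p of 0.05, and 0.00943% of all clusters were called. At an unadjusted p under 0.05 it was again 0 of 9, where 7.22% of all clusters passed. The log2 difference was above 0 in 4 clusters and below 0 in 5, against 52.6% of all clusters above 0, with a median of -0.030 over the members and 0.0080 over all clusters. MT1F averaged 7.74 ± 0.20 in RHOXF1 cells and 7.53 ± 0.28 in control cells (SD, n = 3 each), a log2 difference of 0.21 ± 0.20 SE (limma adjusted p = 0.857). MT2A averaged 10.87 ± 0.25 in RHOXF1 cells and 10.90 ± 0.62 in control cells, a log2 difference of -0.030 with a 95% interval of -0.68 to 0.62. A p that misses the threshold does not show that the levels were equal.

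With RHOXF2 at 48 h, 0 of 9 clusters were called against 0.0943% of all clusters, and 0 of 9 had an unadjusted limma p under 0.05 against 12.2%. All 9 log2 differences from control were above 0, as were 53.9% of those of all clusters, and the members' median was 0.13 against 0.013 over all clusters. The largest was MT1X, which averaged 9.74 ± 0.58 in RHOXF2 cells and 9.39 ± 0.94 in control cells (SD, n = 3 each), a log2 difference of 0.35 with a 95% interval of -0.52 to 1.22 (limma adjusted p = 0.782). That shared direction depended on single arrays. Without control array number 3 it was found in 2 of 9 clusters, with a median of -0.18, and without RHOXF2 array number 3 in 4, with a median of -0.014. It was found in 7 without RHOXF2 array number 2 and in 8 without control array number 2, and in all 9 without number 1 of either group, with medians of 0.36 and 0.37. For RHOXF1 at 48 h the members' median was -0.37 without control array number 3 and 0.17 without control array number 1.

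At 24 h RHOXF1 cells again had 0 of 9 clusters called, against 0.00471% of all clusters, and 0 of 9 at an unadjusted limma p under 0.05, against 4.76%. The members' log2 differences from control ran from -0.093 (MT1E) to 0.38 (MT1F), with a median of 0.28 and a median of 0.0004 over all clusters. They were above 0 in 7 clusters and below 0 in 2, against 50.1% of all clusters above 0. MT1F averaged 8.36 ± 0.29 in RHOXF1 cells and 7.97 ± 0.19 in control cells (SD, n = 3 each), and its 95% interval for the difference was -0.028 to 0.79 (limma adjusted p = 0.961). Same-numbered RHOXF1 and control arrays deviated together at 24 h, with correlations over all clusters of 0.452, 0.353 and 0.328, so the pairs were also compared. MT1F was higher in RHOXF1 cells by 0.44, 0.24 and 0.46 in pairs 1, 2 and 3. MT1G, MT1H and 2 of the 3 MT2A clusters, which correlated at 0.999 with each other, were higher in all 3 pairs too. How many of all clusters were higher in all 3 pairs was not counted, so no result about the members is drawn from this. A fit with number as a block and these groups alone was added after the data were seen. It left 2 residual degrees of freedom, and its interval for MT1F was 0.20 to 0.56. In that fit 5 of 9 clusters had an unadjusted limma p under 0.05, against 10.4% of all clusters. Of these 5, 3 were the MT2A clusters, which nearly repeat each other, and the others were MT1F and MT1G. None of 9 was called there, against 0.00471% of all clusters, and MT1F had the smallest limma adjusted p, 0.287. A block fit of all 24 h arrays, also added after the data were seen, left 4 residual degrees of freedom. Its interval for MT1F was 0.097 to 0.66. That fit had 1 of 9 clusters at an unadjusted limma p under 0.05, against 9.64% of all clusters, and a smallest adjusted p of 0.463. Without control array number 2 the members' median was 0.0024, and without control array number 1 it was 0.51.

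RHOXF2 cells at 24 h had 0 of 9 clusters called, against 0.00943% of all clusters, and 0 of 9 at an unadjusted limma p under 0.05, against 7.99%. Again 7 log2 differences from control were above 0 and 2, those of MT1E and MT1M, below, against 48.8% of all clusters above 0, with a median of 0.26 and a median of -0.0032 over all clusters. MT1G lay farthest from 0: it averaged 8.33 ± 0.50 in RHOXF2 cells and 7.94 ± 0.52 in control cells (SD, n = 3 each), a log2 difference of 0.39 with a 95% interval of -0.21 to 0.99 (limma adjusted p = 0.795). Here too same-numbered arrays deviated together, with correlations of 0.504, 0.134 and 0.157. No member cluster differed in the same direction in all 3 pairs. Fits with number as a block were added here too after the data were seen. With these groups alone, 2 residual degrees of freedom were left and MT1G had an interval of 0.021 to 0.76. In that fit 1 of 9 clusters had an unadjusted limma p under 0.05, against 11% of all clusters. None of 9 was called, against 0.0141%, and the smallest limma adjusted p was 0.432. With all 24 h arrays in the block fit it was also 1 of 9 at the unadjusted p, against 13.4%. The smallest limma adjusted p there was 0.34. Without control array number 2 the members' median was -0.0092, and without RHOXF2 array number 3 it was 0.48. The RHOXF1 and RHOXF2 comparisons at each time use the same control arrays, so their likeness is no result.

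No member had groups that failed to overlap in any of these 4 comparisons. Over all clusters the share with every array of the transfected gene on one side of every control array was, at 48 h, 7.17% above and 5.39% below for RHOXF1, and 6.59% above and 5.24% below for RHOXF2. At 24 h it was 4.6% above and 4.93% below for RHOXF1, and 3.89% above and 7.18% below for RHOXF2. The change of the vector effect between the times was not called for any member either. For RHOXF1 it was 0 of 9 members and 0% of all clusters, with 4.7% of all clusters and no member at an unadjusted limma p under 0.05. For RHOXF2 it was 0 of 9 members and 0.0141% of all clusters, with 8.75% and no member at that unadjusted p. The smallest adjusted limma p for RHOXF2 belonged to MT1E, with a difference of 0.31 and a 95% interval of -0.038 to 0.66 (adjusted p = 0.586).

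**Figure D3:**
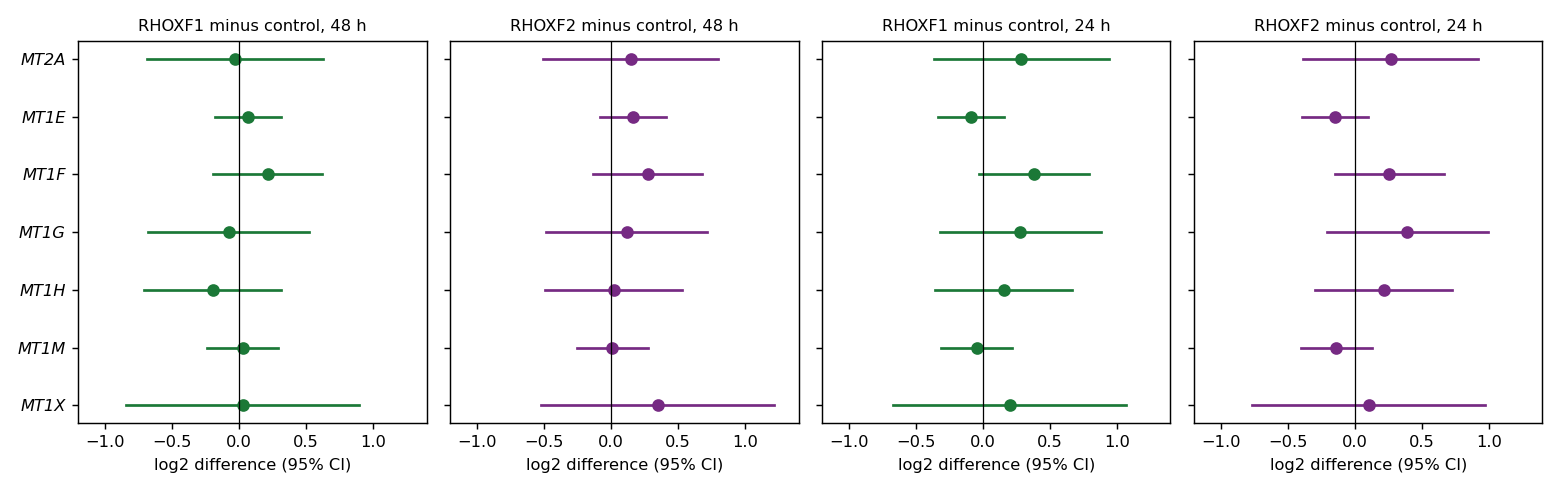
Log2 difference from control (horizontal axes) of each of the 7 genes, RHOXF1 and RHOXF2 cells at 48 h and then at 24 h. Points are limma estimates from 3 against 3 arrays and bars their 95% intervals, and every bar crosses 0. The MT1X bars are the widest, from -0.52 to 1.22 for RHOXF2 at 48 h.

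RHOXF1 and RHOXF2 cells were also set against each other. At 48 h, 0 of 9 members were called and 0.0519% of all clusters were, and at an unadjusted limma p under 0.05 it was 0 of 9 against 3.52%. RHOXF1 lay below RHOXF2 in 8 of the 9 clusters, against 51% of all clusters, with a median log2 difference of -0.18 and a range from -0.32 (MT1X) to 0.017 (MT1M). At 24 h, 0 of 9 members and 0.0141% of all clusters were called, and 0 of 9 against 1.7% passed the unadjusted limma p. The differences ran from -0.11 (MT1G) to 0.13 (MT1F), with a median of 0.039, and 6 of 9 were above 0, against 53.4% of all clusters. No member's groups were separated at either time. Over all clusters every RHOXF1 array lay above every RHOXF2 array in 4.78% at 48 h and 3.84% at 24 h, and below in 4.46% and 2.36%. Every 95% interval of a member included 0 in both comparisons, and that of MT1X at 48 h ran from -1.19 to 0.55.

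Levels were lower at 48 h than at 24 h for most members, and 1 of these differences passed the test. MT1E fell in control cells: it averaged 6.55 ± 0.19 at 48 h and 6.90 ± 0.19 at 24 h (SD, n = 3 each), a log2 difference of -0.35 ± 0.12 SE and a fold of 0.785 (limma adjusted p = 0.0473). It was 1 of 9 members called, against 17.8% of all clusters, and 2 of 9 members, MT1E and MT1F, had an unadjusted p under 0.05, against 33.5%. The call was lost when control number 1 or 3 at 24 h, or number 2 or 3 at 48 h, was left out, with adjusted p of 0.19, 0.0803, 0.0723 and 0.211. It was kept with eBayes trend and robust settings and with the replicate block (limma adjusted p of 0.0482 and 0.0464). It was lost after either further normalization, with the control groups alone and with all clusters of the table tested (0.0625 to 0.117). MT1F averaged 7.53 ± 0.28 at 48 h and 7.97 ± 0.19 at 24 h in control cells, a log2 difference of -0.45 (limma adjusted p = 0.114). In control cells 8 of 9 clusters were lower at 48 h, against 55% of all clusters, and the members' median was -0.15, against -0.029 over all clusters, and it was 0.11 without control number 3 at 48 h.

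In RHOXF1 cells all 9 clusters were lower at 48 h, as were 51.3% of all clusters, with a median log2 difference of -0.39 against -0.0052 over all clusters. By limma 0 of 9 were called, against 4.42% of all clusters, and 1, MT1F, had an unadjusted p under 0.05, against 20.2%. MT1F averaged 7.74 ± 0.20 at 48 h and 8.36 ± 0.29 at 24 h (SD, n = 3 each), a log2 difference of -0.62 ± 0.20 SE with a 95% interval of -1.03 to -0.21 (limma adjusted p = 0.0743). In 5 of the 9 clusters, those of MT1E, MT1F, MT1G, MT1H and MT1M, every 48 h array lay below every 24 h array, which held for 14.7% of all clusters, while 15.1% had every 48 h array above. A fit of the RHOXF1 groups alone called 3 members, MT1F, MT1H and MT1G, with limma adjusted p of 0.0313, 0.0395 and 0.0459, while 8.49% of all clusters were called in that fit. Leaving out any one array kept the median of the members between -0.56 and -0.29.

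In RHOXF2 cells 8 of 9 clusters were lower at 48 h, against 46.2% of all clusters, and MT1X was higher by 0.095, with a median of -0.23 against 0.014 over all clusters. No member's 48 h and 24 h arrays were separated, against 12% of all clusters with every 48 h array above and 8.11% below. None of 9 was called by limma, against 1.24% of all clusters, and 1 had an unadjusted p under 0.05, against 16.7%. That one was MT1F, with means of 7.80 ± 0.29 at 48 h and 8.23 ± 0.39 at 24 h (SD, n = 3 each) and a log2 difference of -0.43 (limma adjusted p = 0.274). Without RHOXF2 number 1 at 24 h the median was 0.0445, and without number 3 at 24 h it was -0.49. MT1F was the member with the smallest or second-smallest p in each of the 3 vectors, and it is singled out here by these same comparisons. Its 48 h means lay below its 24 h means in all of them. The same held for MT1E, MT1G, MT1H, MT1M and the brightest MT2A cluster.

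Arrays of the same group differed widely for most members. The within-group SD was 0.62 for MT1X, exceeded by 18 of the 21214 clusters, 0.43 to 0.49 for the MT2A clusters, exceeded by 51 to 113, and 0.43 for MT1G, exceeded by 117. It was 0.36 for MT1H, exceeded by 205 clusters, and 0.28 for MT1F, exceeded by 530. MT1M, at 0.17, and MT1E, at 0.15, were nearer the median of all clusters, 0.13, and below their 95th percentile, 0.24. No test was made of this spread, and 5 of the 7 genes lay above that percentile.

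**Figure D4:**
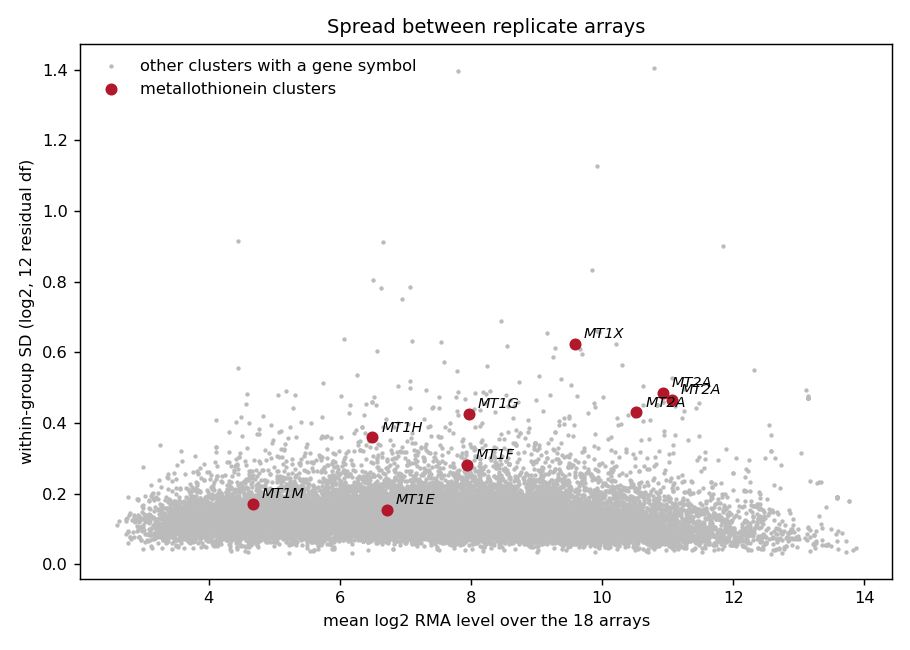
Within-group SD (vertical axis, log2, 12 residual degrees of freedom) against mean log2 RMA level over the 18 arrays (horizontal axis) for the 21214 clusters with a gene symbol. Red points are the 9 metallothionein clusters and grey points the others. MT1X, MT2A, MT1G, MT1H and MT1F lie above the bulk of clusters, and MT1E and MT1M lie within it.

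The same arrays were high or low for nearly all members. At 48 h, number 2 was the highest of the 3 RHOXF1 arrays in 7 of 9 clusters, number 3 the highest of the RHOXF2 arrays in 7 and number 1 the highest of the control arrays in 7. RHOXF2 number 1 and control number 3 were the lowest of their group in all 9. At 24 h, number 1 was the highest in 8 of 9 clusters in RHOXF1 cells, in 9 in RHOXF2 cells and in 9 in control cells. Number 2 was the lowest of the 24 h RHOXF1 arrays in 8 clusters and of the 24 h control arrays in 9, and number 3 the lowest of the 24 h RHOXF2 arrays in 9. The members' mean deviation from their own means was -0.70 on control number 3 at 48 h and 0.65 on RHOXF2 number 1 at 24 h, the ends of the range over the 18 arrays.

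Correlation with MT2A over the 18 arrays was strongest for MT1G, with Pearson's r of 0.965 and Spearman's rho of 0.963. For MT1X r was 0.916 and rho 0.882, and for MT1H r was 0.898 and rho 0.92. The two-sided permutation p of these was 1e-05, the smallest that 100000 permutations can give, and 2e-05 after adjustment over the 6 genes. MT1F had r of 0.792 and rho of 0.798 (adjusted permutation p = 0.00024 and 0.00028). MT1E had r of 0.723 and rho of 0.674 (adjusted permutation p = 0.00079 and 0.003), and MT1M r of 0.689 and rho of 0.616 (adjusted permutation p = 0.002 and 0.008). Leaving out the arrays farthest from the MT2A median, control number 3 at 48 h and RHOXF2 number 1 at 24 h, gave r of 0.946 for MT1G, 0.872 for MT1X, 0.883 for MT1H, 0.664 for MT1F, 0.573 for MT1E and 0.483 for MT1M. Within the 48 h arrays r lay between 0.616 (MT1M) and 0.976 (MT1G), and within the 24 h arrays between 0.657 (MT1E) and 0.986 (MT1G). After the group means were taken out, r was between 0.761 (MT1M) and 0.986 (MT1G). All members were read from the same 18 RNA samples. The permutations ran over all 18 arrays without regard to group or number. Their p therefore cannot tell a link among the members from variation that many genes share between arrays.

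**Figure D5:**
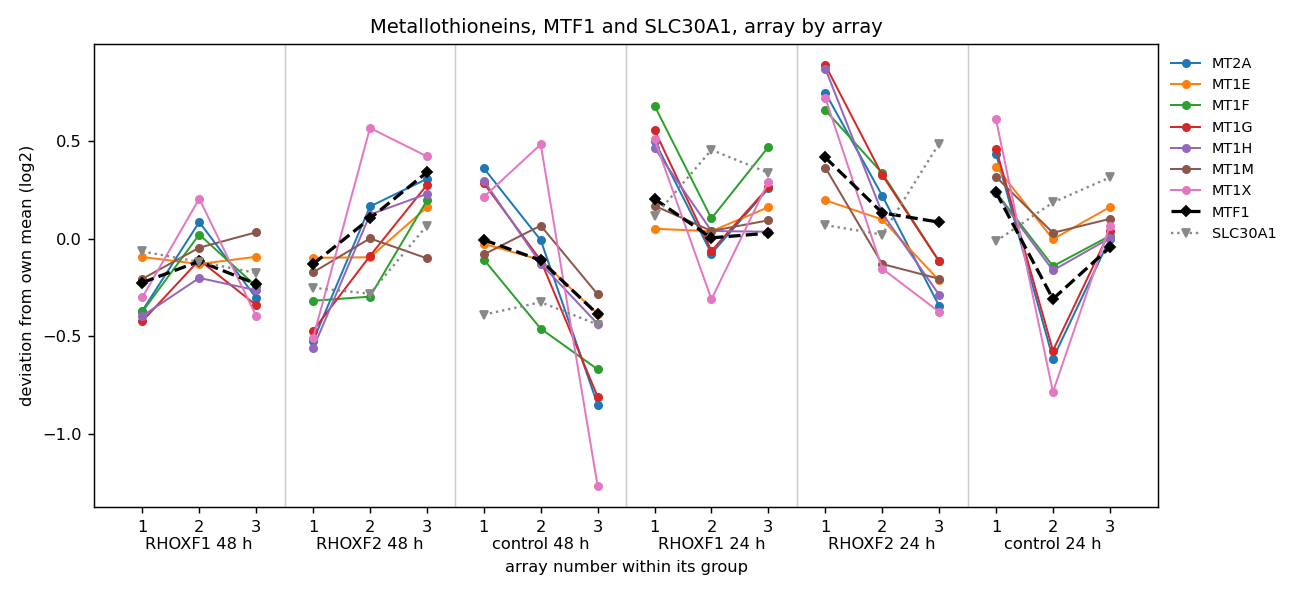
Deviation of each gene from its own mean over the 18 arrays (vertical axis, log2) on each array (horizontal axis, arrays numbered within their group). Solid lines are the 7 metallothioneins, the dashed black line is MTF1 and the dotted grey line the zinc exporter SLC30A1. The metallothioneins and MTF1 lie high and low on largely the same arrays, with control number 3 at 48 h the lowest for MT1X, and SLC30A1 follows another course.

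MTF1, the zinc-sensing activator of metallothionein genes, had one of the most similar profiles. Among 11145 other genes read above the median level, it was rank 4 by correlation with the mean of the members once group means were taken out, with r of 0.942, and rank 7 over the 18 arrays, with r of 0.881. Its log2 level was 8.97, 9.08 and 8.96 in RHOXF1 cells, 9.07, 9.30 and 9.53 in RHOXF2 cells and 9.19, 9.08 and 8.81 in control cells at 48 h. At 24 h it was 9.40, 9.20 and 9.22 in RHOXF1 cells, 9.61, 9.33 and 9.28 in RHOXF2 cells and 9.43, 8.89 and 9.15 in control cells. Control number 3 at 48 h and RHOXF2 number 1 at 24 h were its lowest and highest arrays, as they were for the metallothionein mean. MTF1 passed none of the vector or time comparisons, and its largest difference from control was 0.27 ± 0.14 SE, with RHOXF2 at 48 h (limma adjusted p = 0.445).

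Other genes were as close. Over the 18 arrays the 5 nearest to the members' mean were ZMYND8, a chromatin reader, with r of 0.926, RAB14, a GTPase of endosomal traffic, with 0.92, the glycolytic pyruvate kinase PKM with 0.916, CHRAC1, a subunit of a chromatin remodelling complex, with 0.902, and SYDE1 with 0.887. With group means taken out they were PDLIM4, an actin-associated PDZ and LIM protein, with 0.962, the secreted matricellular protein CCN3 with 0.953, ZMYND8 with 0.944, MTF1, and the serine protease inhibitor SPINT1 with 0.938. These are descriptions over 18 arrays, chosen as the highest of many. Of the genes searched, 2.57% had r above 0.8 with the members' deviations and 2.02% had r below -0.8. The first principal component of the deviations of all clusters held 23.2% of their variance, and the members' mean correlated with it at 0.931 and with the second component at 0.007. What part that component has in the members' spread was not tested.

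SLC30A1, the zinc exporter of the plasma membrane and a classical MTF1 target, did not share the profile: r with the members' mean was 0.228 over the 18 arrays and -0.286 with group means taken out. It fell in control cells, where it read 7.80, 7.87 and 7.75 at 48 h, against 8.18, 8.38 and 8.50 at 24 h, a log2 difference of -0.55 ± 0.12 SE (limma adjusted p = 0.00679). In RHOXF1 cells it read 8.13, 8.07 and 8.02 at 48 h, against 8.30, 8.65 and 8.53 at 24 h (-0.42, adjusted p = 0.0597). Of the 25 genes of the list of MTF1 and the zinc transporters, none was called against control with either vector at either time. Of all clusters, 0.00471% to 0.0943% were called in these comparisons. In control cells at 48 h against 24 h, 1 was higher and 4 lower, beside 17.8% of all clusters called. SLC30A4, a zinc exporter of intracellular vesicles, rose by 0.56 ± 0.13 SE (limma adjusted p = 0.00659). The importer SLC39A3 fell by 0.48, SLC39A7, which releases zinc from the endoplasmic reticulum, by 0.41, and SLC30A7, a Golgi zinc transporter, by 0.28. In RHOXF1 cells the list had 1 call of 25 at 48 h against 24 h, where 4.42% of all clusters were called. It was SLC39A13, which rose by 0.31 (limma adjusted p = 0.0423). In RHOXF2 cells the list had 0 calls, against 1.24% of all clusters.

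Of 13 other metallothionein genes and pseudogenes, 8 were measured by a cluster of their own symbol. By limma 0 were called in any comparison, against 0% to 17.8% of all clusters. Against control with RHOXF1, 0 of 8 had an unadjusted p under 0.05 at 48 h and at 24 h, against 7.22% and 4.76% of all clusters. With RHOXF2 it was 0 of 8 at 48 h, against 12.2%, and 1, MT3, at 24 h, against 7.99%. All 8 were lower at 48 h than at 24 h with each vector, against 51.3% of all clusters in RHOXF1 cells, 46.2% in RHOXF2 cells and 55% in control cells. Their medians were -0.26 in RHOXF1 cells, -0.15 in RHOXF2 cells and -0.17 in control cells, and those of all clusters -0.0052, 0.014 and -0.029. The pseudogene MT1JP followed the members with r of 0.905 over the 18 arrays, MT1DP with 0.868 and MT1HL1 with 0.834. MT3, the form best known from the brain, did so with 0.273, and MT4, known from stratified epithelia, with 0.639. With group means taken out, r was 0.926 for MT1JP, 0.873 for MT4, 0.85 for MT1DP, 0.831 for MT1HL1 and 0.252 for MT3.

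Other inducible programmes were also counted. Among 11 measured genes of the oxidant and cadmium response, 0 were called against control with either vector at either time. Of all clusters, 0.00471% to 0.0943% were called there. With RHOXF2 at 48 h, 4 of the 11 had an unadjusted limma p under 0.05, against 12.2% of all clusters. GCLM, the modifier subunit of glutamate-cysteine ligase, fell at 48 h against 24 h in RHOXF1 cells by 0.46, in RHOXF2 cells by 0.51 and in control cells by 0.56 (limma adjusted p = 0.0262, 0.0341 and 0.00305). GCLC, NQO1, TXNRD1 and SQSTM1 fell in control cells too, by 0.34 (NQO1) to 0.44 (TXNRD1), so that 5 of 11 were called there, against 17.8% of all clusters. HMOX1, the haem oxygenase that cadmium and haem induce, had the highest correlation of the 11 with the members' mean, 0.778, and passed none of the comparisons. The lowest was -0.38, of the cystine transporter SLC7A11, and TXNRD1 had -0.067, or -0.72 with group means taken out. Of the 8 measured glucocorticoid receptor genes and targets, TSC22D3 rose by 0.71 and PER1 by 0.34 at 48 h against 24 h in control cells (limma adjusted p = 0.00502 and 0.02), where 17.8% of all clusters were called, and ZBTB16 rose by 0.49 in RHOXF1 cells (adjusted p = 0.047), where 4.42% were. None of these 8 was called against control, and their correlations with the members' mean lay between -0.49 (ZBTB16) and 0.34 (ERRFI1).

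Copper handling genes gave 0 calls of 11 measured in every comparison, against 0% to 17.8% of all clusters. Their correlations with the members' mean lay between -0.49, of the copper chaperone CCS, and 0.769, of the copper importer SLC31A1. SLC31A2 had 0.741, the dismutase SOD1 -0.36, and the copper pumps ATP7A and ATP7B -0.23 and -0.24. Of 7 measured neighbours of the metallothionein run on chromosome 16, none was called against control with either vector, beside 0.00471% to 0.0943% of all clusters. In control cells at 48 h, HERPUD1, an endoplasmic reticulum stress gene, rose by 0.89 against 24 h, BBS2, a cilium gene, by 0.73 and GNAO1, a G protein subunit, by 0.33, while the oxygenase OGFOD1 fell by 0.38 (limma adjusted p = 0.00462, 0.0132, 0.0229 and 0.0253), again beside 17.8% of all clusters. In RHOXF1 cells OGFOD1 fell by 0.41 (limma adjusted p = 0.0423), where 4.42% of all clusters were called. The neighbours' correlations with the members' mean lay between -0.47 (NUDT21) and 0.42 (OGFOD1). Among the HEK293 markers, KRT8 rose at 48 h against 24 h in RHOXF1 cells by 0.66, in RHOXF2 cells by 0.80 and in control cells by 0.58 (limma adjusted p = 0.0257, 0.0254 and 0.0172). NEFL and VIM rose in control cells, and of the markers of other cell types CD14 fell there by 0.46 (limma adjusted p = 0.0122). The part of these shifts in the metallothionein values was not tested.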

How the data were processed

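RNA of 18 HEK293 samples was labelled and hybridised to 1 Affymetrix array each, per the labels' protocols. The deposited values are log2 expression levels that the authors made with Affymetrix Expression Console 3.1 and RMA, per the labels and the submitters' processing notes. The design text speaks of an exon array, and the sample descriptions of the Human Gene ST type. The genome build is not given in the sources used here. The table holds 33297 transcript clusters. Symbols came from the platform's probe table, which gave 19461 clusters 1 symbol, 1753 several and 12083 none, and 20133 of its 20174 Entrez identifiers matched RefSeq. Groups and numbers came from the sample titles and labels.

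Each of the 21214 clusters with a symbol went into a linear model of all 18 arrays with a mean for each group, in R 4.3.3 with limma 3.58.1 (lmFit and eBayes). This left 12 residual degrees of freedom, and no filter on dim clusters was set. Each contrast was tested from both sides, and Benjamini-Hochberg adjustment ran over all these clusters, with 0.05 as the threshold. The fit was tested on simulated data. Precision is set by the 3 arrays of a group. A gene with several clusters is named by its brightest. From each gene list the text names the members that passed and those with the smallest p or a described correlation. The metallothioneins and the gene lists were chosen with earlier results of these data known. The check of pairing by number found same-numbered arrays deviating together, at a correlation over 0.1, in 2 of 9 pairs at 48 h, none of them with control, and in 8 of 9 at 24 h, all those with control among them. The labels do not say what a number shares. The replicate block is therefore an alternative, and for the 24 h comparisons with control it was also fitted without the 48 h arrays, which was added after the data were seen. The other alternatives were further normalization, a filter on dim clusters, other sets of arrays or clusters in the fit, another variance model and each array left out. Promoters are RefSeq's, GRCh38.p14.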

Additional observations from a re-analysis of the deposited data

How the results depend on the processing

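No alternative called a metallothionein against control with either vector at either time, between the vectors, or in the change of a vector effect, in fits with other normalizations, filters, variance models, sets of arrays or clusters, the replicate block, or any 1 array left out. In control cells at 48 h against 24 h, the 1 called member, MT1E, was lost and 0 were called after repeated quantile normalization (adjusted p = 0.0656), after cyclic loess (0.0625), with the compared groups alone (0.117), with all 33297 clusters tested (0.083), and among clusters above the median level, which leave MT1E out. It was kept with eBayes trend and robust settings (0.0482). Leaving out 1 array gave 0 to 1 called members there, and the log2 difference of MT1E ran from -0.44 to -0.24, with adjusted limma p from 0.0296 to 0.211. In RHOXF1 cells at 48 h against 24 h, 3 members were called with the compared groups alone, and 0 otherwise. With number as a replicate block no call of a member changed, also when the 24 h comparisons with control were fitted on 24 h arrays alone or on the compared groups alone. MT1F for RHOXF1 against control then had adjusted limma p of 0.463 and 0.287. MT1E in control cells kept its call (limma adjusted p = 0.0464), and MT1F in RHOXF1 cells did not pass (0.0669). Over all clusters the block moved the calls for RHOXF1 against control at 48 h to 5, against 2 without it, and for RHOXF2 at 48 h against 24 h to 438, against 264. With the compared groups alone the calls over all clusters were 1 for RHOXF1 and 4 for RHOXF2 against control at 48 h, 6 between the vectors at 48 h, 0 for the change of the RHOXF2 effect, and at 48 h against 24 h 1802 in RHOXF1, 10 in RHOXF2 and 1595 in control cells. With all clusters tested they were 5 between the vectors at 48 h, 0 for the change of the RHOXF2 effect, and at 48 h against 24 h 447 in RHOXF1 and 165 in RHOXF2 cells. Above the median level they were 1 for RHOXF1 against control at 48 h and 0 for the change of the RHOXF2 effect, which was also 0 after cyclic loess. Leaving out 1 array gave, over all clusters, 1 to 4 calls for RHOXF1 and 15 to 125 for RHOXF2 against control at 48 h, 2 to 7 for RHOXF2 against control at 24 h, 4 to 12 between the vectors at 48 h and 3 to 5 at 24 h. It gave 0 to 1 for the change of the RHOXF1 effect and 0 to 3 for that of RHOXF2, and at 48 h against 24 h 13 to 722 calls in RHOXF1, 4 to 801 in RHOXF2 and 2073 to 4077 in control cells. The cause of these changes was not tested, apart from the fewer or more arrays and clusters that the fits hold. Log2 differences that changed sign with 1 array left out, none of them called, ran as follows. For RHOXF1 against control at 48 h they were MT2A from -0.37 to 0.23, MT1E from -0.038 to 0.14, MT1G from -0.38 to 0.17, MT1M from -0.066 to 0.11 and MT1X from -0.51 to 0.36. For RHOXF2 against control at 48 h they were MT2A from -0.19 to 0.41, MT1G from -0.18 to 0.37, MT1H from -0.16 to 0.26, MT1M from -0.084 to 0.092 and MT1X from -0.19 to 0.69. At 24 h they were, for RHOXF1, MT1E from -0.18 to 0.0039, MT1M from -0.11 to 0.035 and MT1X from -0.17 to 0.52, and for RHOXF2, MT2A from -0.0092 to 0.54, MT1H from -0.10 to 0.48 and MT1X from -0.27 to 0.42. At 48 h against 24 h they were, in RHOXF2 cells, MT2A from -0.50 to 0.0445, MT1E from -0.16 to 0.047, MT1H from -0.57 to 0.0084, MT1M from -0.21 to 0.077 and MT1X from -0.12 to 0.43, and in control cells, MT2A from -0.38 to 0.24, MT1G from -0.46 to 0.11, MT1H from -0.31 to 0.061 and MT1X from -0.53 to 0.38. The members' median changed sign with some array left out in 7 of the 11 comparisons, and in 0 of 11 under the other alternatives. With 3 arrays a group and within-group SDs of up to 0.62, differences of the size seen here could not be separated from array spread for MT1X and MT2A.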
